A study of Mus musculus with 12 samples.

Results

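The cytosolic ribosomal protein genes are the nuclear genes that encode the proteins of the ribosome outside mitochondria. They were taken by name from the count table: every gene annotated as protein coding whose symbol follows the Rps and Rpl naming scheme, with Rplp0, Rplp1 and Rplp2, Rpsa and Fau, which encode further ribosomal proteins under other names. The rule found 85 genes of the 35509 in the table. Of these, 78 encode the standard proteins (called core members here), 32 of the small subunit and 46 of the large subunit. The other 7 are paralogs (Rpl3l, Rpl7l1, Rpl10l, Rpl22l1, Rpl36al, Rpl39l and Rps27l). The naming rule leaves out Rack1, a protein of the small subunit. Rps4l is listed in the table as a pseudogene and is therefore no member.

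The RNA came from cells of the distal Fallopian tube (the mouse oviduct) of wild-type, untreated mice on a mixed background, at 4 weeks of age, that carried the MADM RG;GR alleles. In mosaic analysis with double markers (MADM), rare exchange between homologous chromosomes in a dividing cell restores fluorescent proteins, and all descendants of that cell then glow, which shows a clone and its extent. All groups share these alleles, and the recombinase driver that started the marking is not given in the sources used here. Each of 6 mice gave 1 library of large clones and 1 of small clones, each made from 200 cells pooled over clones and cut out by laser, with poly(A) amplification before library construction. The study asked how the expression profile differs between large and small clones.

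The libraries held 3057909 to 4227084 counts each, and a count of 0 allows up to 3 counts, or 0.710 to 0.981 CPM, the level after libraries are brought to equal size. Only counting error enters these limits, and amplified reads are not independent molecules. Of the 12 libraries, 5 stood apart (those of large clones from mice 1, 2 and 6 and of small clones from mice 3 and 6). Genes of the chemoreceptors of smell and taste, silent in most tissues outside the sense organs, held 7.86% to 11.0% of their counts and 0.841% to 4.17% of the other 7. Processed pseudogenes, which are reinserted copies of mRNAs, held 10.7% to 15.5% against 2.97% to 7.22%. The 4 epithelial markers (Epcam, Krt8, Krt18, Cdh1) were all detected, and their summed level was 235 to 1264 CPM in the 5 libraries and 3758 to 8223 CPM in the 7. The summed secretory markers (Ovgp1, Pax8) ran from 361 to 835 CPM in the 5 and from 589 to 7844 in the 7, and the ciliated markers (Foxj1, Tppp3, Dynlrb2) from 10.8 to 95.4 and from 68.4 to 1339. For other cell types, the summed markers in the 5 and in the 7 libraries were 14.4 to 111 and 23.4 to 306 CPM for fibroblasts (4 genes), 1.26 to 42.2 and 11.2 to 107 for smooth muscle (3 genes), and 73.2 to 142 and 26.0 to 136 for endothelium (2 genes). They were 13.1 to 234 and 0 to 54.4 CPM for immune cells (3 genes) and 16.9 to 1225 and 111 to 2715 for red blood cells (3 genes). The summed epithelial markers were lower in every one of the 5 libraries than in any of the 7, while the other lists overlapped, and all 3 immune markers were at 0 in the large clones of mouse 4.

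A ribosome is built from a small subunit (40S), which reads the mRNA, and a large subunit (60S), which joins the amino acids. The proteins of both are made in nearly equal numbers, although their genes are scattered over many chromosomes. Their mRNAs are among the most abundant of a growing cell. Most start with a cytosine followed by an unbroken run of pyrimidines, the 5′ terminal oligopyrimidine tract, through which growth signals and the protein LARP1 control their translation together. The genes have also left many processed pseudogenes in mammalian genomes, some of them nearly identical to the mRNA.

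The start sites carry this tract in part of the family. RefSeq promoters of GRCm38.p6 were matched by symbol for 65 of the 85 members, with 77 promoters between them. A C at the annotated start that opens an unbroken run of at least 5 pyrimidines (C or T on the gene's strand) was found in 14 of the 77 (18.2%), and in 2.51% of all 32851 promoters of the table. A run of at least 7 pyrimidines within 25 bases of the start was found in 54.5% and 29.3%. The windows of 30 bases printed here surround the longest run and read 5′ to 3′ on the gene's strand, with the run in capitals. Fau and Rpl13a are among the most abundant members, Rps18 and Rpl15 have levels that did not move with the rest, and Rpsa and Rpl41 are the most abundant members of each subunit. The windows lie at chr19:6057937-6057966 (+ strand) for Fau, chr7:45128722-45128751 (− strand) for Rpl13a, chr17:33955647-33955676 (− strand) for Rps18, chr14:18270967-18270996 (− strand) for Rpl15, chr9:120127760-120127789 (+ strand) for Rpsa and chr10:128549155-128549184 (− strand) for Rpl41.
Fau: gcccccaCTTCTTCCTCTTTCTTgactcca
Rpl13a: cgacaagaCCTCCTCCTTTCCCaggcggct
Rps18: tcacttccgCTCTCTCTTCCacaggaggcc
Rpl15: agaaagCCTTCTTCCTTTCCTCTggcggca
Rpsa: ttaaggacgtcaTTTCCggccgcccgtcct
Rpl41: acacacgggccggCTCggaagtgacgacac
The longest run was 16 bases in Fau, 17 in Rpl15, 14 in Rpl13a and 11 in Rps18, and 5 in Rpsa and 3 in Rpl41. The annotated first base was a C in Fau, Rps18 and Rpl15, a G in Rpl13a and Rpl41, and an A in Rpsa. A match is a description of these letters only, and annotated starts can lie some bases from the start that cells use.

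The family as a whole held between 1.83% and 20.5% of all counts in a library, an 11.2-fold range. In large clones of mice 1 to 6 its share was 3.83%, 5.64%, 20.5%, 18.6%, 15.7% and 1.83%. In small clones it was 15.2%, 16.2%, 9.13%, 16.3%, 18.1% and 2.91%. The 5 libraries with the higher chemoreceptor share were the 5 with the lowest ribosomal protein share (1.83% to 9.13%, against 15.2% to 20.5% in the 7), and the groups did not overlap. Shares of 1 total are not free of each other, and in pooled cells fewer cells of a type and less of these mRNAs per cell cannot be told apart. The part of epithelial content or of chemoreceptor counts in this difference was not tested.

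**Figure D1:**
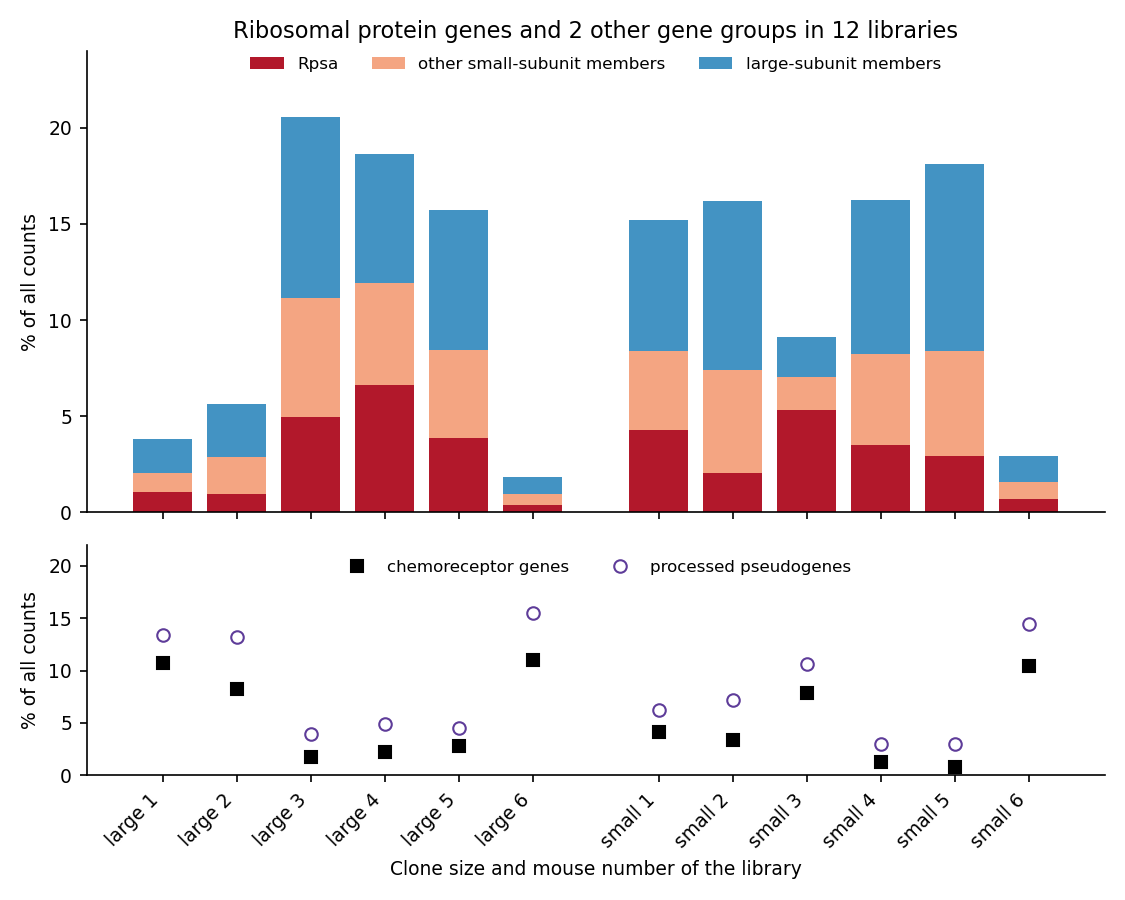
Upper panel: percent of all counts on Rpsa, on the other small-subunit members and on the large-subunit members (stacked bars from 0) in each library, named by clone size and mouse. Lower panel: percent of counts on chemoreceptor genes (squares) and processed pseudogenes (circles). The 5 libraries with 7.86% or more on chemoreceptor genes have the 5 shortest bars.

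Large and small clones overlapped across nearly the whole range of this share. Large clones had a mean of 11.0% ± 8.19 (SD, n = 6; median 10.7%) and small clones 13.0% ± 5.81 (SD, n = 6; median 15.7%). The share was lower in large clones in 4 of 6 mice, by 11.4, 10.6, 2.38 and 1.08 percentage points in mice 1, 2, 5 and 6, and higher in mice 3 and 4, by 11.4 and 2.35 points. The difference of the means was -1.94 points, well within the spread between libraries. Leaving out mouse 1 gave -0.06, leaving out mouse 2 gave -0.21 and leaving out mouse 3 gave -4.61, and the difference was 1.85 within the 7 libraries and -2.26 within the 5. No test was made of a sum over the family.

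Rpsa was the most abundant member. It encodes uS2, a protein of the head of the small subunit that is also known as a laminin receptor, and lies on chromosome 9 (ENSMUSG00000032518, 119956755 to 119961435 in the coordinates of the table, whose build it does not name). It was the single most abundant gene of all in 8 of 12 libraries and ranked between 2 and 18 in the other 4. In large clones of mice 1 to 6 it reached 8279, 8547, 67299, 99136, 37082 and 3316 CPM on TMM-scaled library sizes. In small clones it reached 41547, 22387, 51415, 40201, 34269 and 6180 CPM. Its lowest levels were in 4 of the 5 libraries that stood apart, and the small clones of mouse 3, the other of the 5, had the third-highest level of all.

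Rpsa held 17.0% to 35.5% of the ribosomal protein counts in large clones (median 24.3%) and 12.5% to 58.1% in small clones (median 22.9%). The means were 25.04% ± 6.14 and 26.8% ± 16.3 (SD, n = 6 each). Its share was largest in the small clones of mouse 3 (58.1%) and in the large clones of mouse 4 (35.5%), and in the other 10 libraries it ran from 12.5% to 28.3%. It exceeded the next most abundant member by 1.36 to 8.95 times in 11 libraries. The exception was the small clones of mouse 2, where Rpl41 was higher and the ratio was 0.892. Rpl41 had 71802 counts there and Rpsa 64044, and a processed pseudogene 99.3% identical to Rpsa (Rpsa-ps10) had 28201. The order of the 2 genes in that library, and the Rpsa share of 12.5%, may therefore depend on how reads were shared.

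Between clone sizes Rpsa averaged 37277 ± 38852 CPM for large against 32667 ± 16105 CPM for small clones (SD, n = 6 per clone size). The large clones had the higher level in 3 of 6 mice. The log2 fold change was 0.19 (SE 0.85, adjusted p of 1.00 in edgeR's quasi-likelihood test), so the difference was smaller than its error. It changed sign with the libraries kept: it was 0.89 (SE 0.32) within the 7 libraries and -2.25 (SE 0.87) within the 5, with unadjusted p of 0.018 and 0.043 and adjusted p of 0.99 and 0.86. Within the 5, the small clones of mouse 3 are 1 of only 2 small-clone libraries.

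The balance of the subunits turned on Rpsa. With Rpsa, small-subunit members held 1.05 to 1.78 times the counts of large-subunit members in large clones (median 1.15) and 0.836 to 3.31 times in small clones (median 1.11). Without Rpsa the ratio ran from 0.572 to 0.796 in large clones (median 0.668) and from 0.559 to 0.808 in small clones (median 0.606), a 1.44-fold range over the 12 libraries. The spread between libraries was thus much narrower once this gene was left out. The 2 highest ratios without Rpsa were again those of the small clones of mouse 3 (0.808) and the large clones of mouse 4 (0.796). The family's share varied 11.2-fold over the same libraries.

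Ratios of the subunits did not separate the clone sizes. The mean with Rpsa was 1.25 ± 0.267 in large and 1.41 ± 0.946 in small clones, and without Rpsa 0.671 ± 0.076 and 0.637 ± 0.089 (SD, n = 6 each). The difference with Rpsa was -0.164, and without the small clones of mouse 3 it was 0.217. Without Rpsa the large clones had the higher ratio in 4 of 6 mice.

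Levels between members were compared per kilobase of transcript, with lengths from GENCODE M21. This scaling takes reads to cover the whole transcript, which was not checked for these libraries made with poly(A) amplification. For each gene the transcript with the longest coding sequence was taken, which need not be the form in these cells. On this scale Rpl41, which encodes the shortest protein of the ribosome, came first with 26010 CPM per kilobase, followed by Rpsa (21871), Fau (18013), Rps15 (17380), Rplp1 (8782) and Rpl13a (7520). Fau encodes a ubiquitin-like protein fused to eS30 of the small subunit, Rps15 encodes uS19 near the decoding site, and Rpl13a encodes uL13 of the large subunit. The median core member reached 731 and the lowest, Rpl7a, 9.41 CPM per kilobase. Proteins that a ribosome holds in like numbers thus had measured mRNA levels spread over several orders of magnitude on this scale. Single values depend on the length chosen: Rps20, with a transcript of 3706 bases, had 589 CPM per kilobase of transcript and 6115 per kilobase of coding sequence. Rpl41, Rpsa, Fau and Rps15 ranked 1 to 4 in this order on both scales. Any reads lost to near-identical copies would also enter these levels.

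The next most abundant members followed the libraries too. Rpl41 ran from 1140 to 28754 CPM in large clones (median 10830) and from 2249 to 25168 in small clones (median 16428), and it was lower in large clones in 5 of 6 mice. Rps15 ran from 862 to 17068 CPM (median 6952) and from 1980 to 15808 (median 9637). Fau ran from 987 to 18876 CPM (median 7089) and from 2211 to 11744 (median 9105). In all 3 genes the lowest of the 7 libraries lay above the highest of the 5, at 16049 against 5252 CPM for Rpl41, 9011 against 5743 for Rps15 and 8714 against 5689 for Fau.

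**Figure D2:**
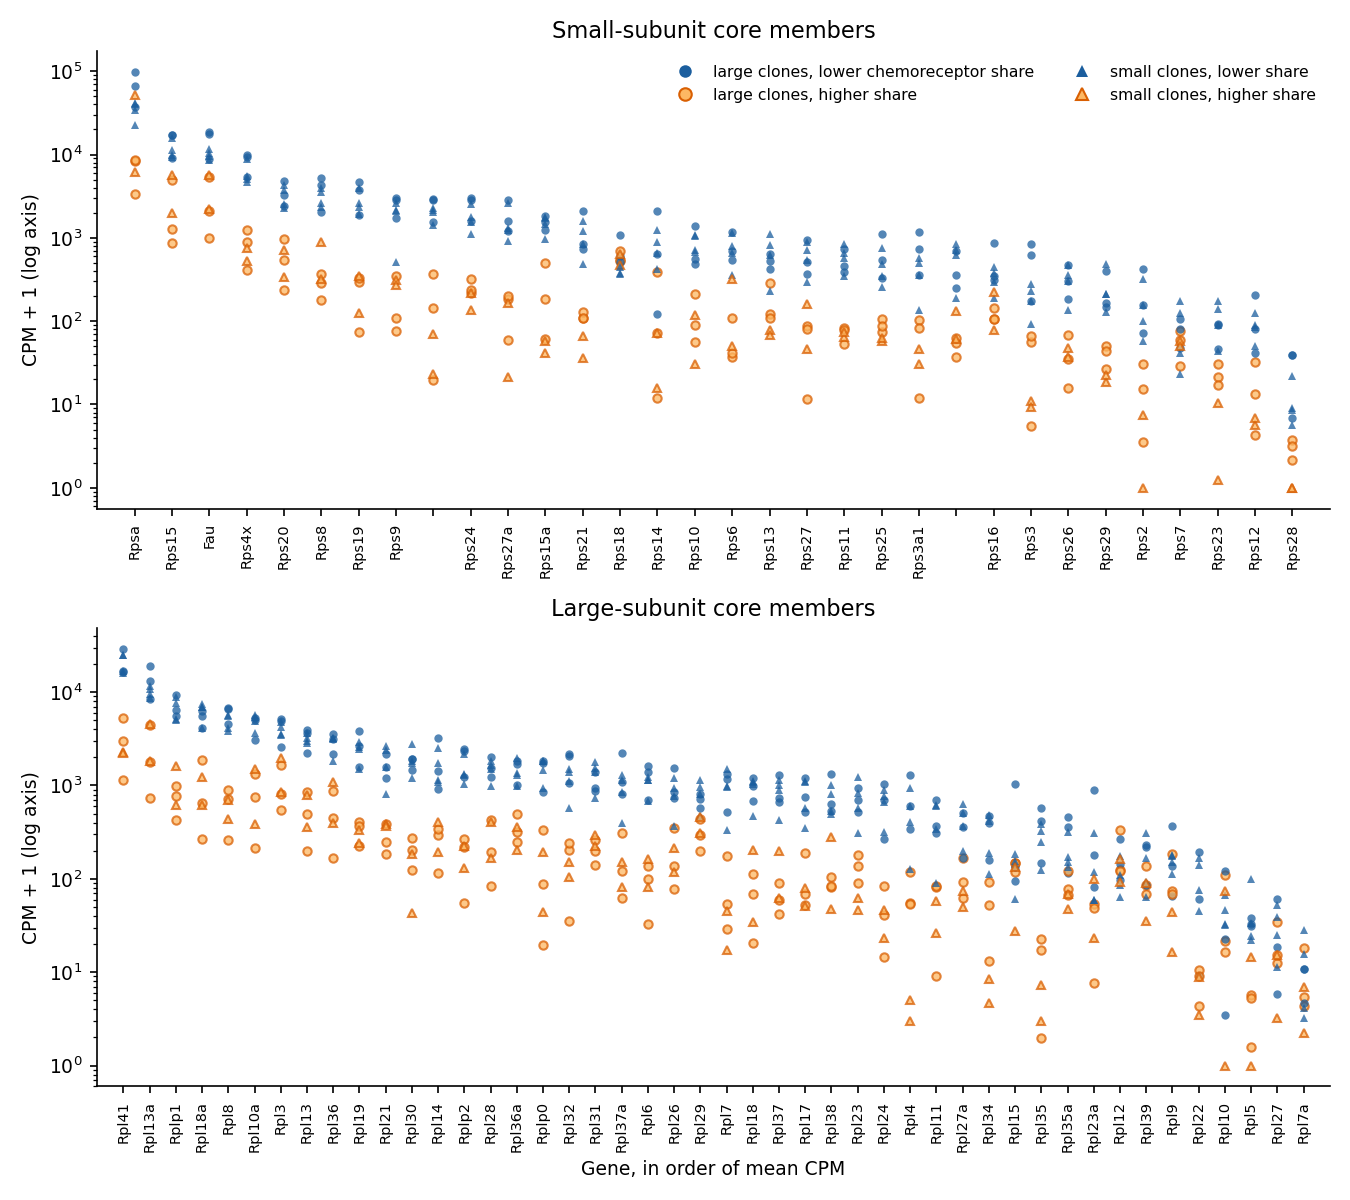
Levels of the 78 core members in each library as CPM + 1 on a log axis, small subunit above and large subunit below, in order of mean level (not all are labelled). Circles are large and triangles small clones, with blue fill for the 7 libraries of lower and orange for the 5 of higher chemoreceptor share. Orange points lie below blue ones for most genes, while for Rps18, Rpl12 and Rpl15 they overlap.

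The stalk of the large subunit, which recruits translation factors, followed the same pattern. Rplp0, its base, ran from 18.3 to 1822 CPM in large clones (median 588) and from 43.6 to 1839 in small clones (median 1209). Rplp1 ran from 430 to 9381 CPM (median 3294) and from 610 to 8939 (median 5048), and Rplp2 from 53.8 to 2453 (median 746) and from 129 to 2198 (median 1155). All 3 were lower in each of the 5 libraries than in any of the 7. Per kilobase Rplp1 ranked 5th, Rplp2 14th and Rplp0 42nd among the 85 members.

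Rps27a, which encodes eS31 of the small subunit fused to ubiquitin, a source of free ubiquitin in the cell, also had overlapping clone sizes. It ran from 58.3 to 2849 CPM in large clones (median 706) and from 20.6 to 2636 in small clones (median 1087). Its median was 7.89 times higher in the 7 libraries than in the 5.

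Across the family, the difference between the 7 and the 5 libraries was shared by nearly every core member. The median level was higher in the 7 libraries for 76 of 78 core members (45.2% of all 10848 genes tested), and more than 2 times higher for 71 (34.7% of all genes tested). For 61 members every one of the 7 libraries lay above all of the 5 (9.97% of all genes tested). The median ratio was 7.67 over core members and 0.813 over all genes tested that had a ratio. With CPM from plain totals, without the TMM factors of 0.687 to 1.31, the ratio exceeded 2 for 67 core members, with a median of 5.81. At least 31.1% of all genes tested did the same. On plain totals 57 core members did not overlap (7.46% of all genes). Small-subunit and large-subunit core members had median ratios of 7.89 and 7.20. The largest, named here after its values were seen, was Rpl35 (uL29) with 51.9 times, from 0.975 to 21.6 CPM in the 5 to 123 to 567 CPM in the 7.

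A few members did not move with the rest. Rps18 (uS13, at the contact between the subunits) had 545, 528, 506, 1096, 609 and 690 CPM in large clones of mice 1 to 6 and 471, 372, 466, 380, 452 and 641 CPM in small clones. Its median in the 7 libraries was 0.865 times that in the 5, and its SD of log2 CPM, 0.42, was the smallest of the 78 core members, whose median was 1.69. Rps18 therefore made up 0.181% to 4.57% of the ribosomal protein counts, depending on the library. Rpl12 (uL11, at the base of the stalk) and Rpl15 (eL15) had ratios of 0.869 and 1.08, and Rps7 (eS7) 1.38. Rpl10 (1.55), Rpl27 (1.69) and Rpl39 (1.95) were the other core members below 2. The longest pyrimidine runs near the annotated starts of Rps18 and Rpl15 were 11 and 17 bases. In Rpl12, Rps7, Rpl10, Rpl27 and Rpl39 they were 7, 5, 4, 5 and 9 bases. A link between run length and level was not tested.

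Within the ribosomal protein counts, the make-up was steadiest for Rpl36 (eL36), Rpl13a and Rpl13 (eL13). The SD of log2 share over 12 libraries was 0.24 for Rpl36, 0.25 for Rpl13a and 0.30 for Rpl13, against a median of 0.82 over core members. Rpl36 held 1.11% to 1.77% of ribosomal protein counts in every library, whatever the size of the family's share. The widest spreads were those of Rpl10 (3.14), Rps2 (2.81) and Rpl4 (2.26). Of the counts of gene and processed pseudogene copies together, copies held 93.5% for Rpl10, 86.0% for Rps2 and 0.023% for Rpl4. Rpl10 and Rps2 were also at 0 in the small clones of mouse 3, where a small constant added before the logarithm sets the share. The spreads of these 2 genes may therefore depend on how reads were shared. The levels of the 3 genes ran from 2.47 to 121 CPM in large clones and from 0 to 73.2 in small clones for Rpl10. They ran from 2.59 to 417 and from 0 to 319 for Rps2, and from 52.3 to 1294 and from 1.98 to 939 for Rpl4. Rpl10 encodes uL16, which completes the large subunit, Rps2 encodes uS5 at the mRNA entry channel, and Rpl4 encodes uL4 in the wall of the exit tunnel. The median SD was 0.49 within the 7 libraries and 0.99 within the 5.

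**Figure D3:**
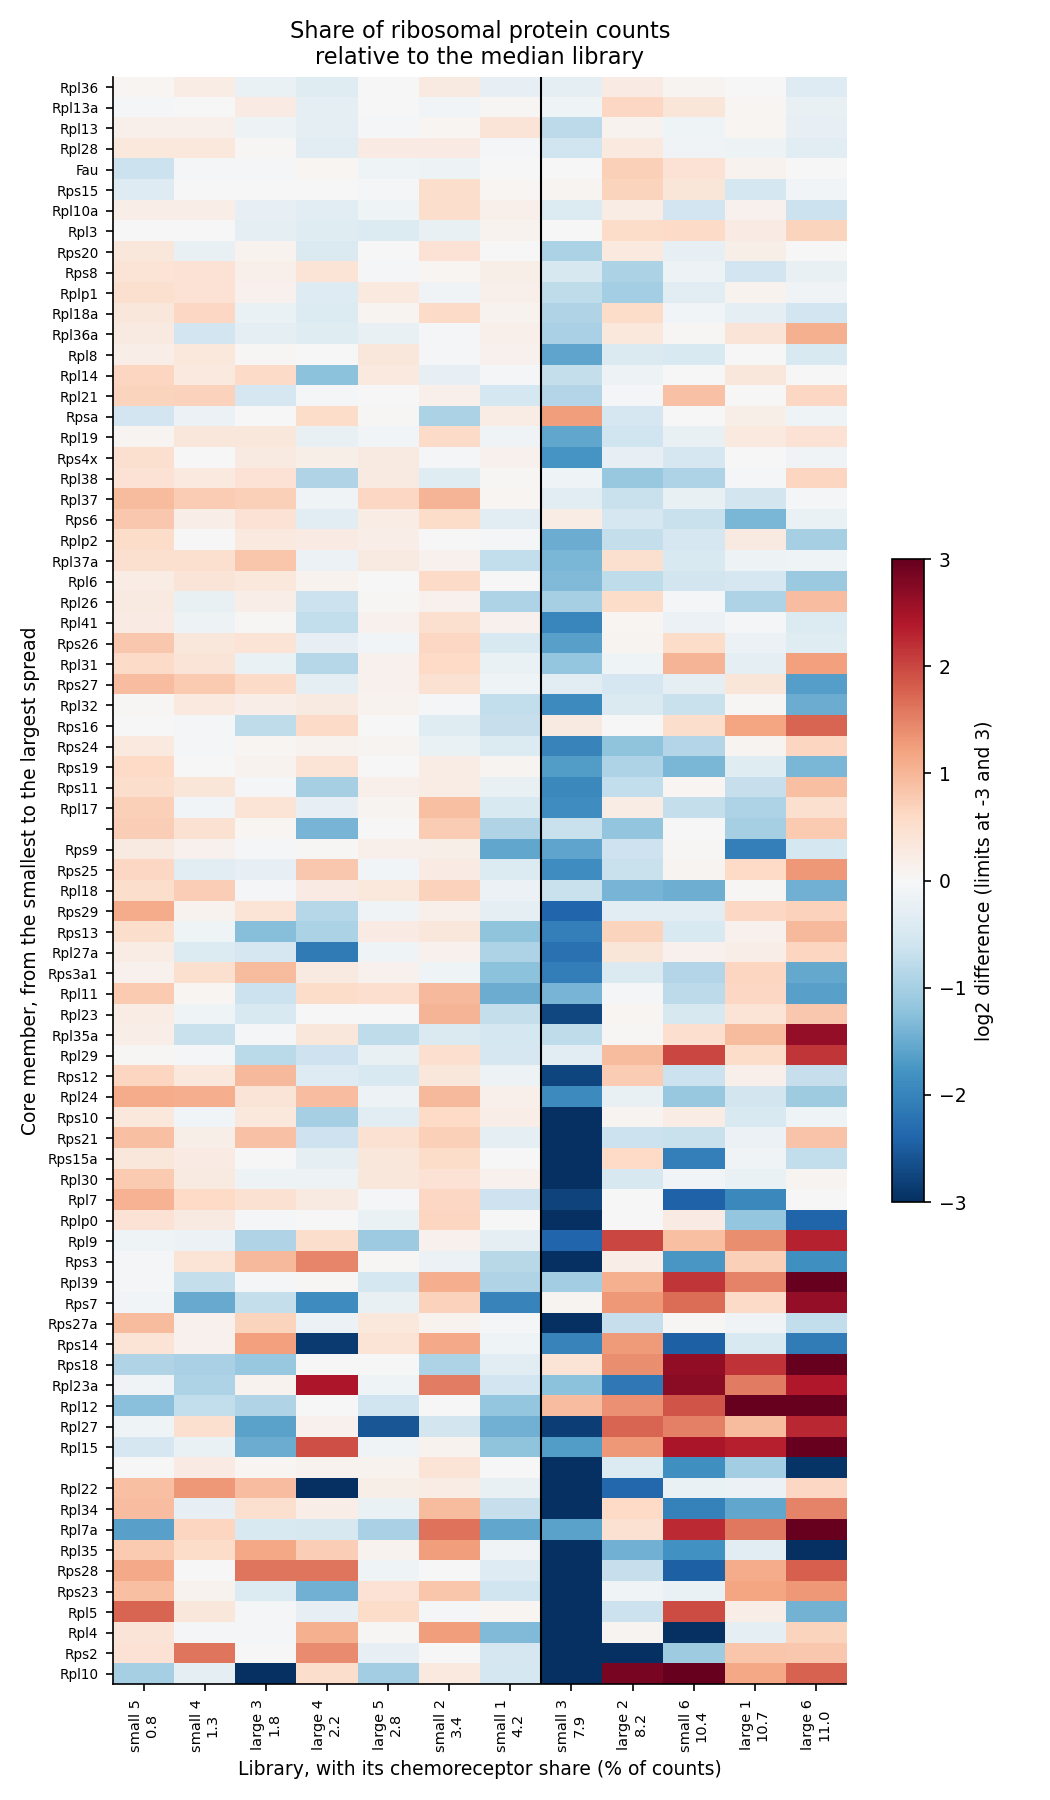
Share of each core member in the ribosomal protein counts of a library, as the log2 difference from its median over the 12 libraries (colour, limited to -3 and 3), with members ordered from the smallest to the largest SD (not all labelled) and libraries by chemoreceptor share (printed below each name). The line separates the 7 libraries from the 5. The small clones of mouse 3 have many members at the lower limit.

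The small clones of mouse 3 had the most unusual make-up. Rps2, Rpl10, Rpl5 and Rps28 were at 0 counts in this library of 3911457 counts, which allows up to 0.767 CPM before TMM scaling, and 9 core members were below 10 counts, against 0 to 2 in the other libraries. The only other core member at 0 was Rps28 in the small clones of mouse 6. In the small clones of mouse 3, processed pseudogenes that match Rpl5 (Gm15500), Rps2 (Rps2-ps10) and Rpl10 (Rpl10-ps3) had 994, 501 and 122 counts. The 0 counts of Rpl5, Rps2 and Rpl10 may therefore depend on how reads were shared, and the limit above covers only reads assigned to the gene. A pair of libraries was compared by the percent of ribosomal protein counts that would have to move to another member to make them alike. The median was 35.7% for the 11 pairs with the small clones of mouse 3, 14.0% for the 21 pairs within the 7 libraries, and 20.02% for the 35 pairs across the 7 and the 5. Without Rpsa the same medians were 27.6%, 12.2% and 20.6%. The 6 pairs from 1 mouse had a median of 16.03%, the 30 pairs of the same clone size 19.4%, and the 30 pairs that differed in both 19.1%.

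The paralogs were far below their namesakes, except where the namesake was itself low. Rpl3l, a muscle form, Rpl10l, a testis form, and Rpl39l, also a testis form, had 6, 2 and 1 counts over all 12 libraries and did not pass the filter on low counts. Their namesakes Rpl3, Rpl10 and Rpl39 averaged 2864, 44.9 and 131 CPM. Rpl36al averaged 101 CPM and Rpl36a 982 CPM, and Rps27l averaged 21.3 CPM and Rps27 388 CPM. Rpl22l1 had 0.390 to 126 CPM in large clones (median 20.3) and 0 to 58.5 in small clones (median 3.97), and Rpl22 3.30 to 192 (median 8.87) and 2.48 to 166 (median 59.9). Rpl7l1, which has a role in ribosome assembly, averaged 48.2 CPM and Rpl7 596 CPM. Rps4l, the gene listed as a pseudogene, averaged 3.88 CPM and Rps4x, the X-linked gene of eS4, 4380 CPM.

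Many members have processed pseudogene copies with which reads may have been shared. How far reads of a member and of its copies can be told apart was not measured. Processed pseudogenes of the table were searched for the members' coding sequences, and 934 matched a member at 90% identity or more over at least 80% of the coding length. They belonged to 75 members, and only 226 of them carry the name of a ribosomal protein gene. Copies held 5.48% to 26.5% of the counts of members and copies together in large clones (median 12.7%) and 6.38% to 21.97% in small clones (median 8.18%). For 12 members the copies held more counts than the member itself. Among them, Rpl7l1 had 1951 counts, and its copy 1700084J12Rik, at only 91.7% identity, had 24548.

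Several of the lowest core members were among these 12. Rpl5 (uL18, a partner of the 5S RNA) had 944 counts over the 12 libraries, and Gm15500, whose sequence is 100% identical over its coding length, had 43522. Rps12 (eS12) had 2168 counts, and its copies Rps12l1 and Rps12-ps3 had 30442 and 16625. Rpl10 had 1876 counts and Rpl10-ps3 24598, Rps2 had 3769 and Rps2-ps10 13220, and Rpl12 had 6380 and Gm10275 21129. With copies added, Rpl5 moved from rank 77 to rank 27 of the 85 members and Rps12 from 74 to 22. The levels of these genes are therefore uncertain by as much.

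Adding the copies removed some exceptions, left others and made new ones. Processed pseudogenes as a class held more counts in the 5 libraries. On plain totals, the 72 tested pseudogenes named after a ribosomal protein gene had a median ratio of 0.490, and all genes tested 0.627. The copies summed held a median of 0.820% of counts in the 5 and 1.31% in the 7. New exceptions may thus reflect the pseudogenes rather than the members, which was not tested. On plain totals Rpl12 alone was 0.688 times as high in the 7 libraries as in the 5, its copies were 8.73 times higher, and both together 4.09 times higher. For Rps18 the ratio was 0.566 alone and 0.564 with its copies, which held 2.64% of the sum. For Rpl15 it was 0.895 alone and 0.573 with copies, and for Rpl7a 1.16 and 0.195. Over all core members the ratio exceeded 2 for 67 alone and for 65 with copies, with medians of 5.81 and 4.60. It rose above 2 with copies for 2 members, Rpl12 and Rpl10, and no longer exceeded 2 for 4. These were Rps2 (15.1 alone and 1.21 with copies), Rpl21 (3.61 and 1.64), Rpl17 (6.62 and 1.97) and Rpl35a (2.09 and 1.91). The ratio was below 1 for 3 core members alone and for 4 with copies, among them Rpl9 (1.59 and 0.692). Rpl35a, Rpl21, Rpl17 and Rpl9 were named after their values were seen. No copy was found for some members, such as Rpl41, Rpl8 and Rps19. The search used the longest annotated coding sequence of each gene (138 bases for Rpl41, 636 for Rps19). A copy of a form with a shorter coding sequence could miss the 80% limit, so these members are not shown to be free of copies.

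**Figure D4:**
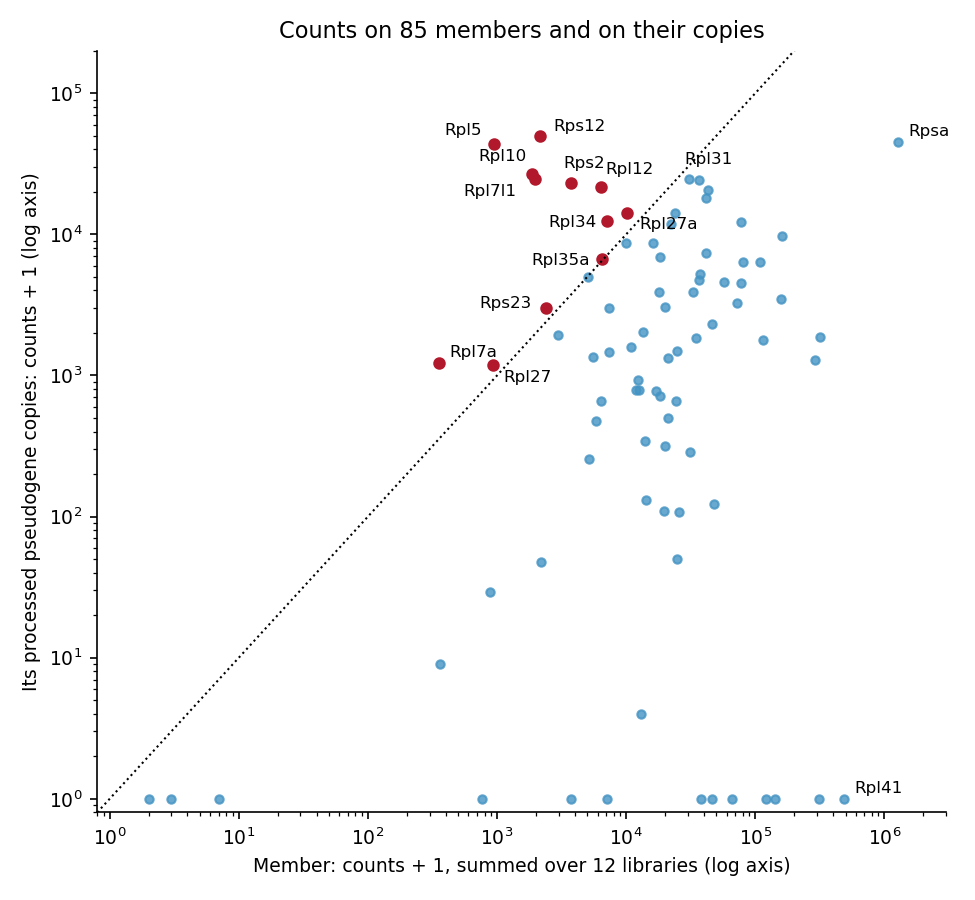
Counts summed over 12 libraries on each of the 85 members (horizontal) and on its processed pseudogene copies (vertical), both plus 1 on log axes. Red points above the dotted line of equal counts are the 12 members whose copies hold more counts. For Rpl41, at the bottom right, the search found no copy.

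No member passed the test between large and small clones. Of the 85, 82 passed the filter on low counts and were tested with edgeR's quasi-likelihood test among 10848 genes. At an adjusted p under 0.05, 0 members and 0 genes passed (0% of all genes tested), and at an unadjusted p under 0.05 there were 0 members, against 275 genes (2.54%). DESeq2 gave 0 members at an adjusted p under 0.05 as well, with 5 genes in all (0.0461%). By sign alone, 29 members had a higher and 53 a lower mean in large clones, where 46.8% of all genes tested were lower. In 0 members did all libraries of 1 clone size lie above all of the other (0.0645% of all genes tested). The median log2 fold change was -0.16 over the 82 members and 0.06 over all genes tested. It was -0.06 for the small-subunit and -0.19 for the large-subunit core members. Its sign did not hold: it was 0.08 with libraries scaled to their ribosomal protein counts, 0.09 within the 7 libraries and 0.23 within the 5, and -0.76 without mouse 3.

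By mouse, 18 tested members were lower in large clones in at least 5 of 6 mice (13.5% of all genes tested did the same) and 2, Rps18 and Rpl27, were higher in at least 5 (12.2%). Such counts over members are not independent, since the whole family moves with the library. Rps18 was the only member that was higher in large clones in all 6 mice, as 1.16% of all genes tested were.

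The members with the lowest p in each direction that are given here were all above the threshold, at an adjusted p of 1.00 (edgeR). Rpl15 had 94.8 to 1024 CPM in large clones (median 139) and 26.3 to 182 in small clones (median 137). Its log2 fold change of 1.26 (SE 0.70, unadjusted p of 0.095) rested on the large clones of mouse 4, at 1024 CPM against 94.8 to 148 in the other 5, and the medians were close. Rpl12 had 95.5 to 329 CPM (median 135) and 63.3 to 174 (median 99.6), and a log2 fold change of 0.66 (SE 0.49). Rps18 had 506 to 1096 CPM (median 577) and 372 to 641 (median 459), and a log2 fold change of 0.51 (SE 0.40). Its clone sizes overlapped although each mouse had the higher value in large clones.

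In the other direction, Rps27l, a paralog known as a target of p53, had 1.06 to 30.9 CPM in large clones (median 2.66) and 0 to 139 in small clones (median 10.5), and a log2 fold change of -1.63 (SE 1.36). Its highest value by far was that of the small clones of mouse 2, and without mouse 2 the log2 fold change was 0.070. Rpl31 (eL31) had 141 to 1377 CPM (median 571) and 226 to 1776 (median 1060), and a log2 fold change of -0.65 (SE 0.69). In Rpl31 the clone sizes overlapped over most of their range.

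**Figure D5:**
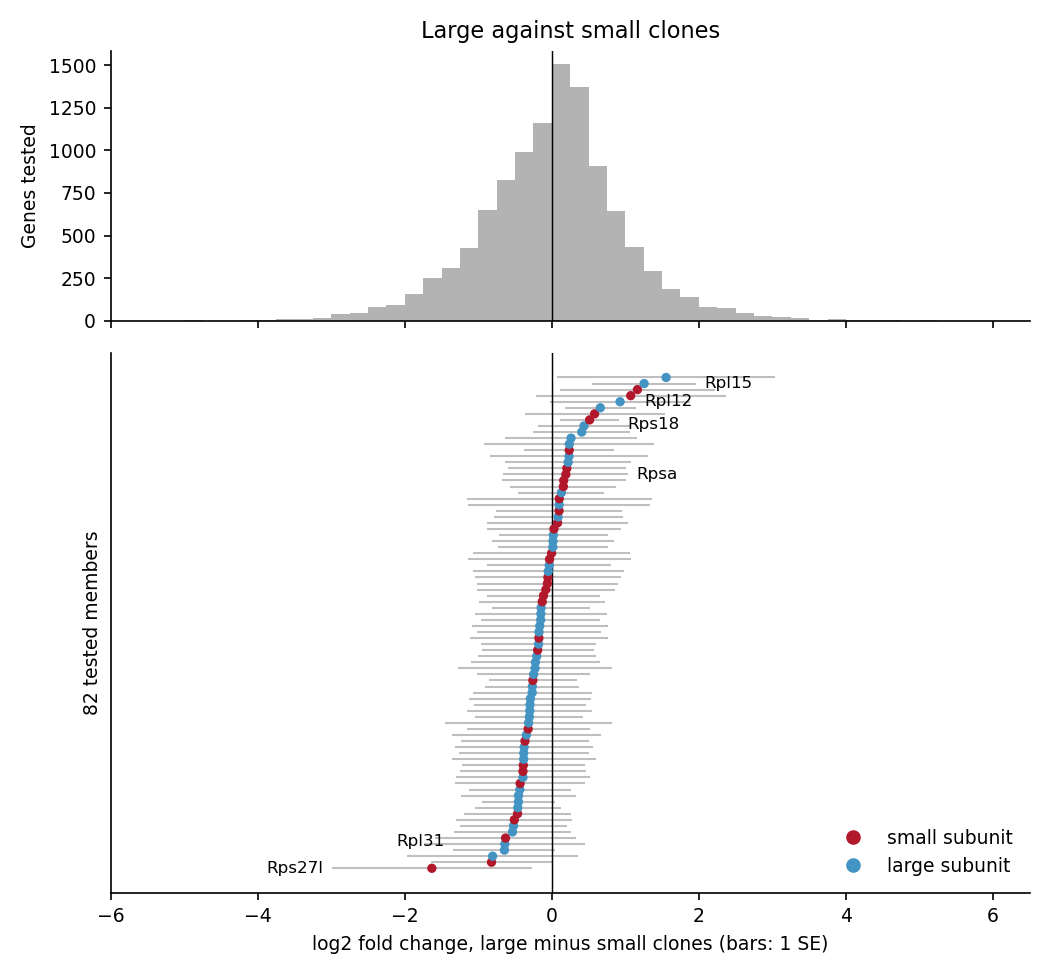
Upper panel: number of genes by log2 fold change, large minus small clones, over the 10848 genes tested. Lower panel: the 82 tested members in order of their log2 fold change with bars of 1 SE, red for the small and blue for the large subunit. Members lie near the middle of all genes, 53 of them below 0 with TMM scaling.

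Other genes of protein synthesis were described beside the family. Of 18 translation factors and related genes known for the same 5′ tract (such as Eef1a1, Eef2 and Tpt1), all were tested, 0 passed the adjusted threshold and 0 had an unadjusted p under 0.05, with 8 higher and 10 lower in large clones. Their summed share was 0.215% to 1.24% of counts, and 0.215% to 0.404% in the 5 libraries against 0.717% to 1.24% in the 7, so the groups did not overlap here either. Of 23 ribosome assembly genes (such as Fbl, Ncl and Nop56), 19 were tested, 0 passed, and 2 had an unadjusted p under 0.05, 1 in each direction. They held 0.092% to 0.112% in the 5 and 0.123% to 0.177% in the 7. Rack1, a scaffold on the small subunit, averaged 1029 ± 1023 CPM for large against 893 ± 517 CPM for small clones (SD, n = 6 per clone size).

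Mitochondrial ribosomal proteins, which serve the separate ribosome inside mitochondria, differed less as a sum, and the sum had the higher median in the 5 libraries. Of the single genes that were tested, most were higher in the 7 libraries. The 78 genes together held 0.528% to 0.780% of counts in all 12 libraries, a 1.48-fold range against 11.2-fold for the cytosolic family. Their share was 0.597% to 0.780% in the 5 libraries (median 0.750%) and 0.528% to 0.691% in the 7 (median 0.652%). It was 0.665% ± 0.087 for large against 0.664% ± 0.067 for small clones (SD, n = 6 per clone size). Of the 78 genes, only 63 passed the filter on low counts and were tested. The median level was higher in the 7 libraries for 40 of the 63 (at least 45.2% of all genes tested). It was more than 2 times higher for 35 (at least 34.7% of all genes tested). The median ratio was 3.86 (3.01 on plain totals), below the 7.67 of the cytosolic core members and above the 0.813 of all genes tested that had a ratio. Genes removed by the filter do not enter these values. Between clone sizes, of 63 tested, 0 passed the adjusted threshold and 1 had an unadjusted p under 0.05. The 316 pseudogenes named after a ribosomal protein gene held 0.218% to 1.59% of counts, and of the 72 tested 0 passed, with 0 at an unadjusted p under 0.05.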

How the data were processed

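Expected counts per gene were deposited by the authors in 1 table with 12 libraries, each of which could be matched to a clone size and a mouse through the labels. The submitters' processing notes name RSEM, Bowtie2 and GRCm38, and their versions and roles are not given in the sources used here. RSEM shares reads that match several genes among them, and 22.7% of the entries were not whole. Of 35491 gene identifiers shared with GENCODE M21 on GRCm38, 2.96% had the same start, so coordinates from the table are those of another build than the promoters'. A row without a symbol held 0.133% of counts and was kept under its identifier.

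Expected counts were rounded and tested for large against small clones in edgeR 4.0.16 (R 4.3.3) by its quasi-likelihood test with TMM scaling, filterByExpr and Benjamini-Hochberg adjustment over 10848 genes at 0.05. The procedure was tested on simulated data. CPM values use TMM-scaled library sizes, and SDs of log2 levels use log2(CPM + 1). Shares, ratios and spreads over the family were described without a test. A chemoreceptor share above 5% separated the 5 libraries from the 7. Copies were found with blastn 2.17.0, against GENCODE M21 coding sequences. Figures were drawn with matplotlib 3.10.9.

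Named genes were Rpsa, Fau, the 5 highest members and 5 lowest core members, the 3 lowest p in each direction, the 3 largest and 3 smallest SDs of log2 share, the paralogs with their namesakes, the stalk proteins and the ubiquitin fusions, and some of these are not reported here. Members, lists and rules were chosen with earlier results of these data known. Alternatives were a mouse block, other scalings, filters and tools, leaving out each mouse, and the 7 and 5 libraries alone. Adding copies, leaving out the small clones of mouse 3, and the block with ribosomal protein scaling were chosen after seeing the data. The labels pair the libraries: those with 1 number are from 1 mouse. The correlations of their deviations from the group means were -0.02, -0.01, -0.38, 0.28, 0.52 and 0.64 for mice 1 to 6.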

Additional observations from a re-analysis of the deposited data

Results flagged for a closer look

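In 86 groups of 6 libraries searched (the family's shares and ratios and the level of each member, by clone size), 9 had a library whose gap to its nearest neighbour exceeded Dixon's 95% limit as a part of the group's range, where chance gives about 1 in 20, or 4.3. The ratio of small-subunit to large-subunit counts was 1.78 in the large clones of mouse 4 and 3.31 in the small clones of mouse 3, where Rpsa held 58.1% of ribosomal protein counts. Pseudogenes named after a ribosomal protein gene took 1.59% of all counts from the small clones of mouse 2. On the log2(CPM + 1) scale, Rpl10 was at 0.0 in the small clones of mouse 3 and Rpl15 at 10.001 in the large clones of mouse 4. Rpl10l was at 0.357 in the large and 0.367 in the small clones of mouse 5, and Rpl39l at 0.396 in the small clones of mouse 1, each from 1 count and with 0 in the other 5 libraries of its group.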

How the results depend on the processing

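No alternative called a member at an adjusted p under 0.05. Over all genes, DESeq2 called 5 and DESeq2 with the replicate block (mouse) 43, against 0 in edgeR. The number of genes with an unadjusted p under 0.05, 275 in the main test, was 202 with the replicate block, 136 with the block and ribosomal protein scaling, 537 in DESeq2, 1135 in DESeq2 with the block, 2880 without a filter, 127 with at least 10 counts in every library, 561 within the 7 libraries and 684 within the 5, and 180 to 491 when a mouse was left out (180 without mouse 4, 491 without mouse 3). The number of members among them, 0 in the main test, was 1 without a filter (Rpl3l), 0 to 1 when a mouse was left out (Rpl22 without mouse 3), 2 within the 7 libraries (Rpsa and Rps3) and 4 within the 5 (Rpsa, Rpl4, Rpl34 and Rps28); these genes were named after their values were seen, and 4.99% of all genes within the 7 and 5.21% within the 5 did the same.

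The median log2 fold change of members was -0.50 with the replicate block and -0.28 without TMM factors, and -0.76 (without mouse 3) to 0.09 (without mouse 2) when a mouse was left out. That of Rpsa, 0.19 in the main test, was -0.46 with the replicate block, -0.47 in DESeq2 with the block, -0.071 without TMM factors, -0.10 with ribosomal protein scaling, -2.25 within the 5 libraries, and -0.39 (without mouse 4) to 0.38 (without mouse 1) when a mouse was left out. That of Rps27l, -1.63 in the main test, was 0.13 with the block and ribosomal protein scaling, 0.75 within the 5, and -2.61 (without mouse 3) to 0.070 (without mouse 2) when a mouse was left out. Rpl15, Rpl12, Rps18 and Rpl31 kept their sign in all 18 alternatives, and 10 of the 35 named genes that were tested did so. The large minus small difference in the subunit ratio, -0.16, was 0.39 within the 7 libraries, -1.13 within the 5 and -0.35 to 0.23 when a mouse was left out. The difference in the Rpsa share of ribosomal protein counts, -1.76 percentage points, was 8.42 within the 7, -19.1 within the 5 and -4.92 to 4.69 when a mouse was left out. The cause of these changes was not tested. Rps28, with 360 counts over the 12 libraries and 8 on its copies, is limited by depth. Of the counts of gene and copies together, copies held 97.9% for Rpl5 and 77.4% for Rpl7a, whose low levels also depend on how reads were shared.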

Other observations

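One copy of the most abundant member was high in 1 mouse. Rpsa-ps10, a processed pseudogene 99.3% identical to Rpsa over its coding length, had 12714 counts in the large and 28201 in the small clones of mouse 2, and 22 to 213 counts in the other 10 libraries. In CPM it reached 2995 and 9858 in mouse 2. Rpsa itself held 17.0% of ribosomal protein counts in the large and 12.5% in the small clones of this mouse, which with the small clones of mouse 5 (16.2%) were its 3 smallest shares. This copy was noticed in the values and was not tested.

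Among the translation factors, Naca, a subunit of the complex that binds new chains at the ribosome, ran from 1.88 to 1777 CPM in large clones (median 177) and from 0.744 to 331 in small clones (median 92.8). The large clones of mouse 4 had by far the highest level, with 741 CPM in the next library, and the large clones had the higher level in 3 of 6 mice. Npm1, Hnrnpa1 and Nap1l1, which are on the same list, had medians in the 7 libraries that were 0.633, 0.463 and 0.958 times those in the 5, unlike Eef1a1 (12.8) and Eif3f (26.3).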
